A study of Mus musculus with 12 samples.

Results

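Small nucleolar RNAs, Cajal body RNAs and other small nuclear or catalytic RNAs were followed through both library methods in mouse liver. Members were all genes of the deposited table whose symbol begins with Snora or Snord, Scarna or Rnu and a number, or with Rn7s, together with Rmrp and Rpph1. There were 81 of them among the 27022 genes of the table, and 98 further genes of the GENCODE M21 annotation with such symbols had no row in it. By class, 44 were box C/D snoRNA genes (Snord), 18 box H/ACA snoRNA genes (Snora), 6 Cajal body RNA genes (Scarna), 7 Rnu genes and 4 Rn7s genes, beside Rmrp and Rpph1. Most are very short: their lengths ran from 64 to 414 bases with a median of 108. On the same strand, 61 lay inside another gene, called the host here, and 20 lay outside any host.

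The RNA came from the livers of 6 female SJL/J mice at 11 weeks of age, fasted and perfused with saline. All 6 first ate the AIN-93G control diet with 50 ppm iron, 3 stayed on it, and 3 were moved at 6 weeks of age to an AIN-93G diet with 2% carbonyl iron (iron-loaded). Each diet was fed to a single cage, and an effect of the cage cannot be told apart from one of the diet. From each RNA, 1 Trad-KAPA library (mRNA capture, fragmentation, whole transcript reads) and 1 3’-LEXO library (priming at the 3’ end with oligo(dT), reads near the transcript end) were made, and the same mouse number names the same animal in both.

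Box C/D snoRNAs guide the methylation of ribose in ribosomal RNA and box H/ACA snoRNAs guide pseudouridylation, each in a particle with a fixed set of proteins. A few act in the cleavage of the ribosomal RNA precursor instead. Cajal body RNAs do the same guiding for spliceosomal RNAs, and the Rnu genes encode spliceosomal RNAs themselves. Most mammalian snoRNAs are cut out of introns of host genes, many of which encode ribosomal or nucleolar proteins, while a minority, and most of the other classes, have promoters of their own. As a rule these RNAs carry no poly(A) tail, which both library methods use.

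The libraries held 13834682 to 16553616 counts in Trad-KAPA and 10724672 to 14104236 in 3’-LEXO. The level of a gene is given as reads or as CPM, its reads scaled to a common library total. Iron-loaded mouse 1 stood apart from its 2 cage mates. The chi-square per degree of freedom against them was 49.8 to 53.5 in Trad-KAPA and 49.4 to 59.8 in 3’-LEXO, compared with 5.98 and 5.97 between those mates. Between control mice it was 18.5 to 19.9 in Trad-KAPA and 25.8 to 35.9 in 3’-LEXO. Values without iron-loaded mouse 1 are given where they differ. Of the hepatocyte markers, Alb was at 34242 CPM or more in every library, as in liver. Among the marker lists of hepatocytes, Kupffer, endothelial and stellate cells, lymphocytes and red cells, Vsig4 and Lyve1 were higher on the iron-loaded diet in Trad-KAPA, and Lyve1 was higher and Stab2 lower in 3’-LEXO. In 3’-LEXO the 4 endothelial markers summed to 255 to 315 CPM on the control and 209 to 230.2 CPM on the iron-loaded diet, without overlap. In Trad-KAPA their sums overlapped, at 214 to 282 and 232 to 290 CPM. The 5 Kupffer markers summed to 294 to 467 and 485 to 491 CPM in Trad-KAPA, without overlap. In 3’-LEXO their sums overlapped, at 808 to 1049 and 996 to 1092 CPM. The 4 red cell markers summed to 158 to 1197 CPM on the control and 115 to 203 CPM on the iron-loaded diet in 3’-LEXO. Their part in the results was not tested. In bulk liver, fewer cells and less RNA per cell cannot be told apart.

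The kits differed far more in the level of these genes than in how many of them had reads. A Trad-KAPA library had at least 1 read of 41.3 ± 5.65 members (SD, n = 6), from 34 to 50. A 3’-LEXO library had reads of 44.5 ± 5.05, from 36 to 51. The ranges overlapped, and over the 6 mice the 3’-LEXO library had 3.17 ± 6.97 members more (SD, n = 6), between 8 fewer and 12 more. With every library drawn down to 10000000 counts the means were 35.5 and 41.2, and the 3’-LEXO library had 5.67 ± 8.43 members more (SD, n = 6). At full depth, members with a read were 51.0% and 54.9% of the members, compared with 71.5% and 69.9% for all genes of the table. As no gene of the table was at 0 in all libraries, these shares cover only genes with a read somewhere.

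The reads behind this detection were few. In Trad-KAPA all members together had 974 reads over 6 libraries, and 47 of the 81 never passed 3 reads in any library. 3’-LEXO gave 51163 reads, although 45 members never passed 3 reads there either. With at least 10 reads required, 2.83 members per Trad-KAPA library and 11.5 per 3’-LEXO library remained. Of the members, 58 had reads in both kits, 13 in 3’-LEXO only and 10 in Trad-KAPA only. The table holds no gene at 0 in all 12 libraries, so that no member could lack reads in both kits. In all, 60 members had at most 10 reads in each of the 12 libraries, so that their levels rest on single reads, and intervals and floors given here cover counting error only.

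Summed over the members, Trad-KAPA showed 11.1 ± 2.84 CPM (SD, n = 6). In 3’-LEXO the sum was 654 ± 309.9 CPM (SD, n = 6). The lowest 3’-LEXO library, at 265 CPM, lay far above the highest Trad-KAPA library, at 15.9 CPM. A pair of box C/D genes made up most of it: of the 3’-LEXO member reads, 62.1% were Snord13 and 25.7% Snord118, which together made 0.821% of those in Trad-KAPA. Without this pair the Trad-KAPA sum was 11.0 ± 2.85 CPM and that of 3’-LEXO 79.9 ± 17.6 CPM (SD, n = 6). The other 479 genes of small RNA types in the table had a sum of 23.5 ± 2.502 CPM with Trad-KAPA and of 63.5 ± 5.98 CPM with 3’-LEXO (SD, n = 6).

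**Figure D1:**
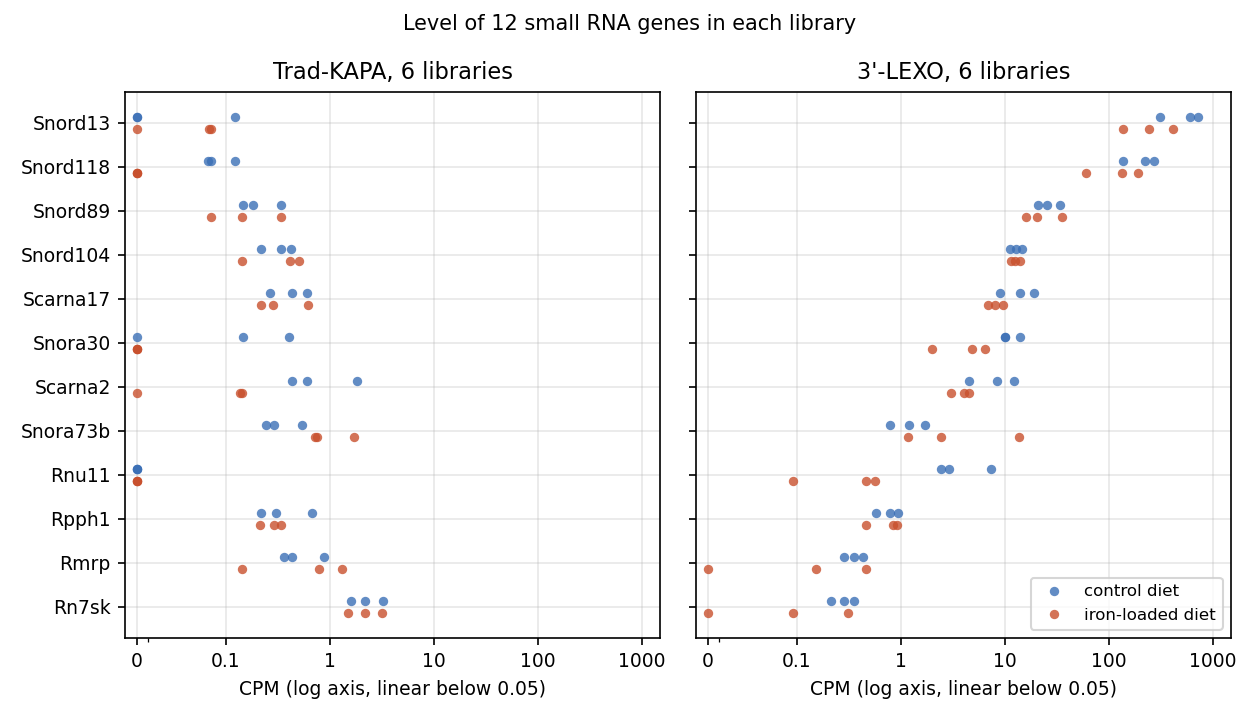
CPM of 12 members in each Trad-KAPA (left) and 3’-LEXO (right) library on a log axis that is linear below 0.05, with 1 point per mouse, blue for the control and red for the iron-loaded diet. Snord13 and Snord118 sit between 60.8 and 721 CPM in 3’-LEXO and at or below 0.121 CPM in Trad-KAPA, while Rn7sk sits higher in Trad-KAPA.

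Snord13, a box C/D RNA that base-pairs with the small-subunit ribosomal RNA, and Snord118, a box C/D RNA needed for cutting the precursor of the large-subunit RNA, both have promoters of their own. The study picked both for RT-qPCR because only 3’-LEXO showed them in these samples, so their contrast between the kits is a description and not independent evidence. The sequence of Snord118 is printed with those of Snord89 and Snord104, the members that followed the pair in 3’-LEXO, to show that these 3 hold the box C/D features and no long run of A. The capitals mark the C box (TGATGA) and, as the D box, the last letters CTGA of each sequence. They are the GENCODE M21 transcripts on GRCm38: Snord118 at chr11:69073427-69073561 (plus strand), Snord89 at chr1:39548745-39548854 (minus) and Snord104 at chr11:106500993-106501062 (plus).
Snord118: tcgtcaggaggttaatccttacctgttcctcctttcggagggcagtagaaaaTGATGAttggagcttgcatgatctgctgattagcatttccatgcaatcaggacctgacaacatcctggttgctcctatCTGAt
Snord89: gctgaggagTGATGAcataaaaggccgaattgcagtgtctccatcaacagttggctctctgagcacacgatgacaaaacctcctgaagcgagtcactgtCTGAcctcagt
Snord104: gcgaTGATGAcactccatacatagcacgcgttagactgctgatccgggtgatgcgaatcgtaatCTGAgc
TGATGA followed later by CTGA, on the transcribed strand, was found in 31 of the 44 Snord members (70.5%), in 0 of 18 Snora members and in 4 of 6 Scarna members. The same letters were in 266 of 26433 other genes (1.01%), searched in the last 104 bases of their longest transcript. The longest run of A was 4 bases in Snord118 and Snord89 and 2 in Snord104, and it was at most 5 in 78 of the 81 members. What follows these genes in the genome was not analysed here.

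In 3’-LEXO, Snord13 had 10085, 8445 and 4347 reads in control mice 1, 2 and 3 and 1784, 4467 and 2663 in iron-loaded mice 1, 2 and 3. The Trad-KAPA libraries of the same mice held 2, 0 and 0 and 0, 1 and 1 reads of it. The totals gave a 3’-LEXO level 9089 times that in Trad-KAPA (95% exact interval 3550 to 33361). Snord118 showed the same split, with 3778, 3132 and 1915 reads on the control and 793, 2061 and 1486 on the iron-loaded diet in 3’-LEXO. Its Trad-KAPA reads were 2, 1 and 1 and then 0 in each iron-loaded mouse, and the level ratio was 3764 (1470 to 13816). Per 1000 bases of transcript, the 3’-LEXO levels were 3892 CPM for Snord13 and 1257 CPM for Snord118, the highest of all members.

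Snord89 came next in 3’-LEXO per 1000 bases, at 230 CPM; it lies inside the noncoding gene Gm15832. It had 475, 359 and 292 control and 209, 377 and 224 iron-loaded reads in 3’-LEXO, against 1 to 5 reads per library in Trad-KAPA. The host itself had 38 to 65 reads in each 3’-LEXO library, so that the snoRNA gave more reads than the gene around it. Snord104, which has no annotated host, was the steadiest of the group, with 206, 179 and 157 control and 182, 134 and 125 iron-loaded reads in 3’-LEXO. In Trad-KAPA it had 2 to 7 reads per library, and the 3’-LEXO level was 37.5 times the Trad-KAPA level (26.1 to 55.8). Neither gene had a library of one kit inside the range of the other.

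The Cajal body RNAs Scarna17 and Scarna2, both outside host genes, followed the same order. Scarna17 had 88 to 267 reads per library in 3’-LEXO and 3 to 10 in Trad-KAPA, and its 70.0% share of 50-base stretches found also in Gm25443 makes its count uncertain. Scarna2 had 172, 63 and 119 control and 40, 49 and 45 iron-loaded reads in 3’-LEXO. Its Trad-KAPA reads were 30, 9 and 6 and then 0, 2 and 2, with control mouse 1 far above the rest. The 4 other Scarna genes lay inside hosts and had at most 4 reads in any library of either kit.

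Among the spliceosomal RNA genes the RNAs of the minor spliceosome, which removes a rare class of introns, had the most reads in 3’-LEXO. Rnu11 had 103, 41 and 34 reads in the control and 6, 6 and 1 in the iron-loaded libraries, and 0 reads in each Trad-KAPA library. Against a floor of 3 reads over the 6 Trad-KAPA libraries this was at least 72.8-fold higher in 3’-LEXO. Rnu12, named after its values were seen, had 17, 4 and 7 and then 0, 3 and 0 reads in 3’-LEXO and 0 in Trad-KAPA, at least 11.8-fold higher. The members of the major spliceosome, Rnu1b6, Rnu2-10, Rnu5g and Rnu6, likewise named afterwards, never had more than 1 read in a library. All 50-base stretches of Rnu1b6, Rnu2-10 and Rnu6 occur in other genes too, as do 53.9% of those of Rnu12, and since only uniquely mapped reads were counted, the levels of such genes are uncertain. Rnu73b carries an Rnu symbol but is annotated as a snoRNA inside Rps3a1, and it had 2 to 9 reads in Trad-KAPA and at most 1 in 3’-LEXO.

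Rn7sk, the RNA that holds the elongation factor P-TEFb inactive, went the other way. It had 36, 48 and 22 control and 44, 32 and 21 iron-loaded reads in Trad-KAPA, the highest level of any member there, and 3, 4 and 5 and then 4, 0 and 1 reads in 3’-LEXO. The Trad-KAPA level was 10.4 times the 3’-LEXO level (95% exact interval 6.36 to 18.3), and 68.1% of its 50-base stretches occur in other genes. The signal recognition particle RNA genes Rn7s1, Rn7s2 and Rn7s6, which share sequence with each other, had 0 reads in Trad-KAPA and at most 3 per library in 3’-LEXO. Rmrp, the RNA of the RNase that cuts ribosomal RNA precursors in the nucleolus, had 6, 13 and 6 and then 11, 19 and 2 reads in Trad-KAPA and 4, 6 and 5 and then 2, 5 and 0 in 3’-LEXO. Its exon is annotated under a second identifier and lies antisense to an exon of Ccdc107, which makes its count uncertain. For Rpph1, the RNA of the RNase that matures transfer RNA, 3 to 10 reads per Trad-KAPA library and 6 to 13 per 3’-LEXO library were counted, and it shares an exon with Ccnb1ip1.

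Of the box H/ACA genes, Snora30 and Snora73b stood above 1 CPM in 3’-LEXO. Snora30 lies inside Srcap and the noncoding gene Gm42715 and had 141, 140 and 197 control and 26, 69 and 53 iron-loaded reads in 3’-LEXO, compared with 0, 6 and 2 and then 0 in each iron-loaded library in Trad-KAPA. Snora73b, which takes part in ribosomal RNA processing and lies in introns of Rcc1 and Snhg3, antisense to an exon of Gm17300, had 24, 11 and 17 and then 180, 26 and 13 reads in 3’-LEXO. In Trad-KAPA it had 4, 8 and 4 and then 24, 11 and 10. The other 16 Snora genes had 11 reads or fewer in each 3’-LEXO library except Snora78, which reached 15 and was named for that. Snora31, inside the gene of the translationally controlled protein Tpt1, was among the 10 highest members in Trad-KAPA, with 7, 1 and 4 and then 2, 8 and 4 reads.

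**Figure D2:**
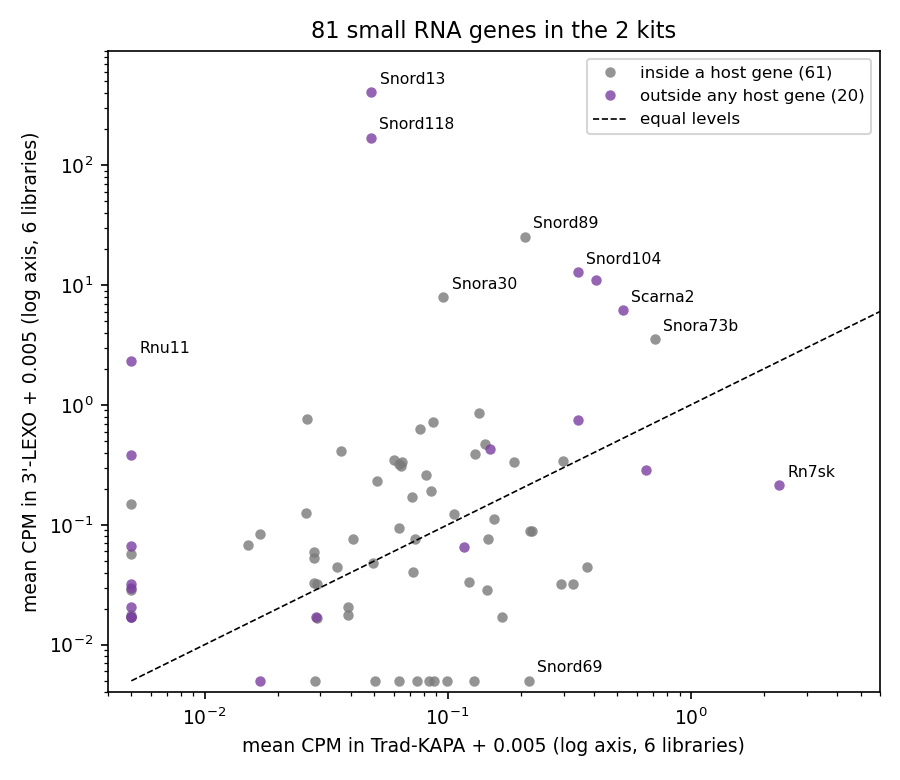
Mean CPM over 6 libraries in Trad-KAPA (x axis) and 3’-LEXO (y axis) for the 81 members, on log axes after adding 0.005, with members inside a host gene in grey, members outside one in purple and equal levels as a dashed line. Of the 81 members, 52 have the higher mean in 3’-LEXO and 29 in Trad-KAPA, and the members far above the line are few.

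The kits were compared over all 12 libraries with edgeR's quasi-likelihood test and diet as a term. Each mouse gave a library to both kits, but the fit had no term for the mouse and took the libraries as independent. The filter of edgeR on low counts kept 9 of the 81 members. A member kept through the kit where it is high had to differ, so the count is given with that limit. All 9 had an adjusted p below 0.05, beside a background of 77.4% of 13311 genes tested, of which 39.1% were higher in 3’-LEXO and 38.3% in Trad-KAPA. The 8 members higher in 3’-LEXO were Snord13, Snord118, Snord89, Snora30, Snord104, Scarna17, Scarna2 and Snora73b, and the 1 lower was Rn7sk, in each case in 6 of 6 mice. Fitted log2 fold changes of 3’-LEXO over Trad-KAPA were 6.91 (SE 0.31, adjusted p = 4.56e-11) for Snord89 and 6.37 (SE 0.50, adjusted p = 1.81e-08) for Snora30. They were 5.21 (SE 0.19) for Snord104, 4.74 (SE 0.28) for Scarna17, 3.64 (SE 0.43) for Scarna2 and 2.24 (SE 0.55) for Snora73b. For Rn7sk the value was -3.33 (SE 0.37, adjusted p = 9.71e-07). The 10 other genes of small RNA types that were tested split 8 to 2 the same way. Of the 172 other genes shorter than 500 bases in this fit, 82.6% were called higher in 3’-LEXO and 14.5% in Trad-KAPA. A shift toward 3’-LEXO was thus not particular to the members.

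Keeping every gene with at least 10 reads over the 12 libraries brought 49 members into the kit comparison. A member at or near 0 in one kit enters only through its reads in the other: Rnu11, Rnu12 and Snora19 had 0 reads in Trad-KAPA, and Snord53 and Snord69 had 0 in 3’-LEXO. The counts, also those inside and outside hosts, are therefore a description and support nothing. Of the 49, 34 passed, 26 higher in 3’-LEXO and 8 higher in Trad-KAPA, where 67.9% of all 19202 genes passed and 33.3% were higher in 3’-LEXO. Among the 12 members outside a host, 9 were higher in 3’-LEXO and 1, Rn7sk, in Trad-KAPA. Inside hosts, 17 of 37 were higher in 3’-LEXO and 7 in Trad-KAPA. Those inside hosts were Snord69, Snord53, Snord32a, Rnu73b, Snord37, Snord19 and Snora2b, named after their values were seen. Snord32a, inside the ribosomal protein gene Rpl13a, had 11, 1 and 2 and then 6, 3 and 6 reads in Trad-KAPA and at most 1 in 3’-LEXO. Snord37, inside Eef2, had 1 to 10 reads per Trad-KAPA library and at most 2 in 3’-LEXO. The mean Trad-KAPA level of Eef2 was 1586 CPM, and Snord37 had 0.231 reads there for every 1000 reads of this host. The study saw some Trad-KAPA reads within introns of its example gene Unc50. Whether reads of members inside hosts came from the small RNA or from the host transcript was not tested. Snord69 and Snord19, both inside Gnl3, lie within an annotated exon of that gene, so that their reads and those of Gnl3 cannot be told apart. Snora2b overlaps an exon of its host Kansl2 and shares 48.9% of its 50-base stretches with it. Of the 29 members with the higher mean in Trad-KAPA, 10 overlapped an exon of another gene on the same strand. Of the 52 with the higher mean in 3’-LEXO, 6 did. By higher mean alone, 15 of 20 members outside and 37 of 61 inside a host were higher in 3’-LEXO, or 64.2% of members compared with 49.4% of all other genes and 57.0% of the 3230 other genes shorter than 500 bases.

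Between the diets, 13 members had enough reads to be tested in 3’-LEXO, and 2 of them differed: Rnu11 and Snora30, both lower in the iron-loaded mice. The background was 6.1% of 13301 genes called, with 2.92% of the genes tested called lower. Rnu11 passed the filter on low counts through the control libraries, where it is high, so that its call is given with that limit. Their log2 fold changes were -3.53 (SE 0.60, edgeR adjusted p = 0.0124) for Rnu11 and -1.43 (SE 0.37, edgeR adjusted p = 0.0487) for Snora30. Both were also the only tested members whose iron-loaded libraries all lay below all control libraries, as they did for 12.8% of genes tested. In the other direction there was 1 tested member, Snord49b, whose iron-loaded libraries all lay above all control libraries.

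Rnu11 is the minor spliceosome RNA that reads the 5’ splice site, and Snora30 is a box H/ACA RNA. Their sequences are shown because these were the 2 members called between the diets. Capitals mark the letters AATTTTTTG, a site of the kind bound by Sm proteins, in Rnu11 and the ACA box that stands 3 bases from the end in Snora30. Both are GENCODE M21 transcripts on GRCm38, Rnu11 at chr4:132270080-132270213 (minus strand) and Snora30 at chr7:127527874-127528003 (plus).
Rnu11: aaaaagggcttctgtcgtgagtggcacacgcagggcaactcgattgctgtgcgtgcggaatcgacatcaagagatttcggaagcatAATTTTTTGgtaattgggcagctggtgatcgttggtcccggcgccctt
Snora30: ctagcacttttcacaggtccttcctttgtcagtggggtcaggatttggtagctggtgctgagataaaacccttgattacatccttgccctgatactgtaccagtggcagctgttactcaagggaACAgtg
AATTTTTTG was found in 2 of the 7 Rnu members and in 48 of 26107 other genes (0.184%), in as many last bases of the transcript as Rnu11 has. ACA with 3 bases after it ended 16 of the 18 Snora members and 770 of 26148 other genes (2.94%).

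In CPM, Rnu11 was at 7.36, 2.93 and 2.41 in the control and 0.460, 0.559 and 0.0909 in the iron-loaded 3’-LEXO libraries. Control mouse 1 was the highest, and no iron-loaded library reached the lowest control library. The call remained in each alternative fit and with each mouse left out, with adjusted p from 6.43e-15 to 0.0357. Its exon overlaps an antisense exon of Gm28872, and the strand setting of the counting is not given in the sources used here. Snora30 was at 10.1, 10.02 and 14.0 CPM on the control and 1.99, 6.43 and 4.82 CPM on the iron-loaded diet. Its call was lost without any 1 of the control mice or without iron-loaded mouse 3 (adjusted p from 0.0974 to 0.153), while it remained without iron-loaded mouse 1 (log2 fold change -1.06, adjusted p = 0.0277). Of its host genes in 3’-LEXO, Srcap was at 3.07, 2.36 and 3.40 CPM on the control and 2.30, 1.86 and 2.27 CPM on the iron-loaded diet, also without overlap, with a log2 fold change of -0.52 (SE 0.28) that did not pass (edgeR adjusted p = 0.280). Gm42715 was at 21.9, 12.3 and 18.2 CPM and then 18.4, 22.0 and 18.2 CPM, with overlap and a log2 fold change of 0.10 (SE 0.22).

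**Figure D3:**
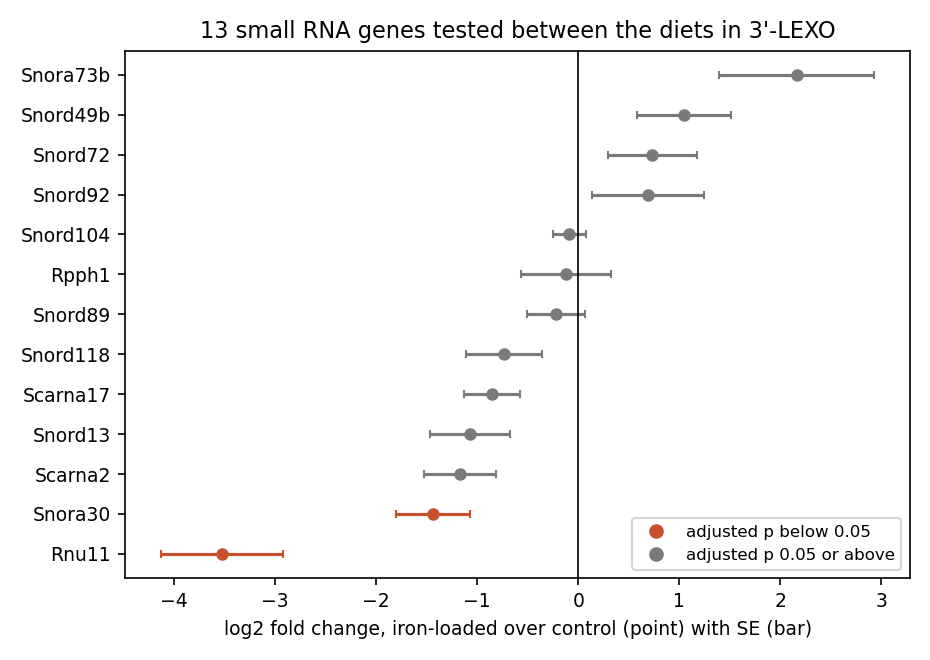
Log2 fold change between the diets in 3’-LEXO (x axis, iron-loaded over control, 3 libraries each) for the 13 members tested, with SE bars, in red where the edgeR adjusted p was below 0.05. Rnu11 at -3.53 and Snora30 at -1.43 are the 2 members past the threshold, and 9 of the 13 values lie below 0.

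The other 11 tested members did not pass. Snord13 was at 721, 604 and 308 CPM on the control and 137, 417 and 242 CPM on the iron-loaded diet, a log2 fold change of -1.07 (SE 0.40, adjusted p = 0.132) with overlapping groups. Without iron-loaded mouse 1, its lowest library, the value was -0.76 (adjusted p = 0.180). Snord118 gave -0.74 (SE 0.38, adjusted p = 0.257), Scarna2 -1.17 (SE 0.36, adjusted p = 0.0798) and Scarna17 -0.85 (SE 0.28, adjusted p = 0.0944). For Snord104 and Snord89 the values were -0.09 (SE 0.16) and -0.22 (SE 0.29), and for Rpph1 -0.12 (SE 0.45). Snora73b was at +2.16 (SE 0.77, adjusted p = 0.118), which rested on iron-loaded mouse 1: without it the value was 0.50 (adjusted p = 0.577). Snord49b, Snord72 and Snord92, inside a noncoding gene, Rpl37 and Wdr43, complete the tested members, with log2 fold changes of 1.04, 0.73 and 0.69. For Snord49b the SE was 0.47, with an edgeR unadjusted p of 0.0492 and adjusted p of 0.198. Its control libraries lay between 0.213 and 0.644 CPM and its iron-loaded libraries between 0.818 and 1.12 CPM, without overlap. Snord72 had 11, 6 and 9 and then 18, 7 and 13 reads in 3’-LEXO. DESeq2 called 5 of these 13, adding Snord13, Scarna2 and Scarna17, all lower, to Rnu11 and Snora30. It called 1381 of all 13301 genes. With iron-loaded mouse 2 left out, edgeR called 3, Snord13 among them, where 771 of 13679 genes were called. Without control mouse 1 or 3 or iron-loaded mouse 3 it called 1, Rnu11, where 326, 199 and 346 genes were called. In the study's RT-qPCR of the same RNA, Snord13 was nearly unchanged on the iron-loaded diet and Snord118 was lower. The study scored the RT-qPCR result as nearer to Trad-KAPA for Snord13 and to 3’-LEXO for Snord118. In the deposited counts, Trad-KAPA held 4 reads of Snord13 and 4 of Snord118 in all its libraries together. That is too few to measure a diet change in that kit.

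The summed level of the members in 3’-LEXO was 1102, 906 and 525 CPM in control mice 1, 2 and 3 and 265, 690 and 438 CPM in iron-loaded mice 1, 2 and 3, so the groups overlapped. Without Snord13 and Snord118 the sums were 112, 77.1 and 80.97 and then 67.5, 81.4 and 60.8 CPM, again with overlap. Members outside hosts, leaving out that pair, had 42.3 ± 12.9 CPM on the control and 26.8 ± 2.24 CPM on the iron-loaded diet (SD, n = 3). Members inside hosts had 47.7 ± 6.62 and 43.1 ± 8.33 CPM (SD, n = 3).

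In Trad-KAPA 3 members could be tested between the diets, Rn7sk, Rmrp and Snora73b, and 0 passed in edgeR or in DESeq2, beside 17.1% of 13151 genes. At an unadjusted p below 0.05 there was 1, Snora73b, beside 4507 of the 13151 genes. Snora73b was at 0.242, 0.536 and 0.289 CPM on the control and 1.71, 0.751 and 0.719 CPM on the iron-loaded diet, without overlap. Its log2 fold change was 1.49 (SE 0.51, edgeR adjusted p = 0.0778). Without iron-loaded mouse 1 the value was 1.01 (edgeR adjusted p = 0.196). Rn7sk was at -0.10 (SE 0.34) and Rmrp at 0.37 (SE 0.67). With every gene of at least 10 reads kept, 27 members were tested and 2 passed, where 12.8% of 16934 genes did. These were Scarna2, lower by a log2 fold change of -3.30 (SE 0.85, adjusted p = 0.0346), and Snord69, higher by 3.67 (SE 0.95, adjusted p = 0.0351), with 0, 1 and 0 and then 8, 5 and 4 reads. Both reached 10 reads through the group where they are high, which limits these calls. The difference between the kits in the diet effect was tested for 15 members, also without a term for the mouse. By edgeR's interaction term 0 passed, 0 had an unadjusted p below 0.05, and DESeq2 called 0, beside 0% of 14384 genes, of which 402 had an unadjusted p below 0.05. For Rnu11, with 0 reads in each Trad-KAPA library, the term could not be estimated (SE 7131). Its SE was 2.02 for Snora30, 2.30 for Snord92, 2.47 for Snord118 and 2.55 for Snord13, which had few Trad-KAPA reads. For these members the test could hardly find a difference. A test that calls nothing does not show that the kits gave the same change.

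Several host genes were higher on the iron-loaded diet, and most of the snoRNA genes within them had too few reads for a test. The members inside genes have 52 hosts, 45 of which were tested in Trad-KAPA, and 15 were higher on the iron-loaded diet and 0 lower, where 8.77% of genes tested were called higher. In 3’-LEXO 5 of 47 were higher and 0 lower, where 3.17% of genes were called higher. The 5 called in both kits were Ncl, nucleolin of the nucleolus, Gnl3, a nucleolar GTPase, Rcc1, the exchange factor of the GTPase Ran, Eif3a, a translation initiation subunit, and Snhg3, a noncoding host. Snhg3 lies within Rcc1 on the same strand, so that reads of the 2 genes may not be told apart.

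Ncl, which hosts Snord82, was at 94.3, 94.0 and 93.2 CPM in the control and 269, 174 and 179 CPM in the iron-loaded Trad-KAPA libraries. Its log2 fold change was 1.07 (SE 0.16, adjusted p = 0.00591) there and 1.06 (SE 0.17, adjusted p = 0.00943) in 3’-LEXO. Snhg3 was at 1.39, 0.536 and 1.23 CPM and then 6.71, 3.48 and 3.31 CPM in Trad-KAPA, a log2 fold change of 2.00 (SE 0.40, adjusted p = 0.0151). Rcc1 rose by 1.33 (SE 0.13, adjusted p = 0.00148), and Gnl3 by 1.18 (SE 0.21, adjusted p = 0.0113) in Trad-KAPA. Nop58, itself a core protein of the box C/D particle and the host of Snord70 and Snord11, was at 9.91, 9.71 and 8.89 CPM and then 43.8, 14.1 and 17.7 CPM. For it the log2 fold change was 1.32 (SE 0.36, adjusted p = 0.0412), and without iron-loaded mouse 1 it was 0.70 (SE 0.13, adjusted p = 0.00835). In every one of these 5 host genes iron-loaded mouse 1 was the highest Trad-KAPA library, and without that mouse 16 hosts were called higher in Trad-KAPA and 4 in 3’-LEXO, where Snhg3 no longer passed (adjusted p = 0.0649). Of all genes tested without that mouse, 10.7% and 3.30% were called higher. Without control mouse 1, 2 or 3 the Trad-KAPA count was 4, 5 and 4, beside 4.07%, 3.09% and 4.12% of all genes. The 3’-LEXO count was then 3, 2 and 2, beside 1.07%, 0.923% and 0.714%. Without iron-loaded mouse 2 the 3’-LEXO count was 9, beside 3.07% of all genes called higher.

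**Figure D4:**
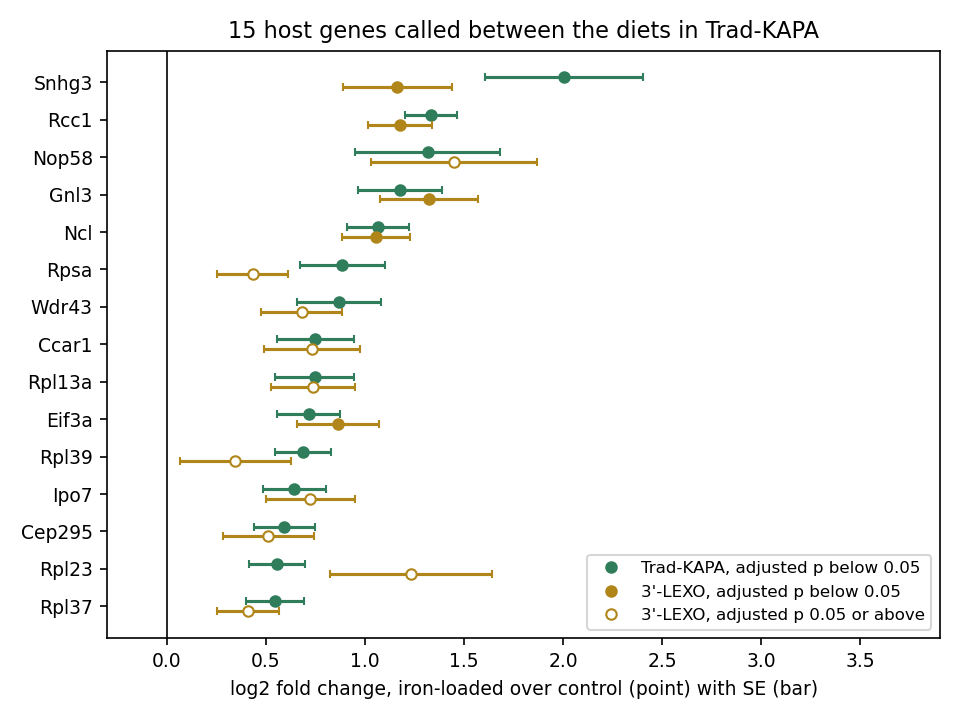
Log2 fold change between the diets (x axis, iron-loaded over control) with SE bars for the 15 host genes called higher in Trad-KAPA, in green for Trad-KAPA and in brown for 3’-LEXO, filled where the adjusted p was below 0.05. All 15 lie above 0 in both kits, and 5 of them pass in 3’-LEXO.

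Of the snoRNA genes inside these hosts, Snora73b, Snord72 and Snord92 could be tested in 3’-LEXO. The 20 members inside the 15 hosts summed to 33, 19 and 25 reads in the control and 68, 26 and 34 in the iron-loaded Trad-KAPA libraries. Leaving out Snora73b, the sums were 29, 11 and 21 and then 44, 15 and 24 reads, with overlapping groups. In 3’-LEXO the 19 members without Snora73b had 30, 53 and 32 reads and then 58, 30 and 33.

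The proteins that work with these RNAs were followed by lists chosen with earlier results known. Over all genes tested, edgeR called 17.1% of 13151 in Trad-KAPA and 6.1% of 13301 in 3’-LEXO. An unadjusted p below 0.05 in edgeR was reached by 4507 and 3325 genes, and DESeq2 called 2498 and 1381. All counts from these lists are to be read beside those shares, and single calls from a list are a description only. Of the 4 core proteins of the box C/D particle 3 were tested in each kit, and edgeR called Nop58 in Trad-KAPA and 0 in 3’-LEXO, where 1 had an unadjusted p below 0.05. DESeq2 called 2 in Trad-KAPA, Nop58 and Nop56, and 1 in 3’-LEXO, Nop58. Of 12 particle assembly factors Nolc1, a nucleolar phosphoprotein, was higher in Trad-KAPA by 0.81 (SE 0.23, adjusted p = 0.0460), and 0 passed in 3’-LEXO by edgeR, where 2 had an unadjusted p below 0.05 and DESeq2 called 1. For the 5 box H/ACA and Cajal body particle proteins edgeR called 0 in either kit. With Trad-KAPA, 0 had an unadjusted p below 0.05 and DESeq2 called 0. With 3’-LEXO these counts were 3 and 2. For the 19 Sm, U1, U2 and U11/U12 particle proteins edgeR and DESeq2 called 0 in either kit, with 1 and 2 at an unadjusted p below 0.05. Of 9 LSm proteins tested in Trad-KAPA, Lsm11, of the particle that processes histone RNA, was lower by a log2 fold change of -0.76 (SE 0.17, adjusted p = 0.0214), and of 10 in 3’-LEXO 0 passed by either tool or at an unadjusted p below 0.05.

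The proteins of RNase P and RNase MRP (10 tested in each kit) had 0 calls by edgeR and DESeq2, with 1 in Trad-KAPA and 2 in 3’-LEXO at an unadjusted p below 0.05. The 7 proteins around the Rn7sk RNA also had 0 calls by both tools, with 2 and 1. Of the 18 factors of small RNA tailing and trimming edgeR called 0 and DESeq2 1 in each kit, with 2 and 2 at an unadjusted p below 0.05. Among 19 SNAPc and Integrator subunits, which start and cut small nuclear transcripts, Ints1 was lower in Trad-KAPA (-0.46, SE 0.10, adjusted p = 0.0214), and 0 passed in 3’-LEXO by either tool or at an unadjusted p below 0.05. In the signal recognition particle list of 8 tested, Srpr was higher in Trad-KAPA (0.59, SE 0.16, adjusted p = 0.0371) and Srp19 in 3’-LEXO (0.65, SE 0.16, adjusted p = 0.0431). Of 15 noncoding snoRNA host genes tested in Trad-KAPA, Snhg3, Snhg14, Snhg15 and Snhg17 were called higher by edgeR, beside 8.77% of all genes. Of 16 in 3’-LEXO Snhg3 was, beside 3.17% of all genes, and DESeq2 called 3 and 2.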

How the data were processed

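The authors mapped 50-base single-end reads with STAR 2.5.3a to GRCm38 (mm10) and deposited raw counts per Ensembl gene of reads mapped uniquely to exons, without normalization or duplicate removal; the counting program and its strand setting are not given in the sources used here. GENCODE M21 gave the symbols (26940 of the 27022 identifiers), positions, hosts and sequences. Members and lists were chosen with earlier results of these data known. Named genes were Rmrp, Rpph1, Rn7s and Rnu members of at least 1 CPM, the study's RT-qPCR picks, the 10 highest members per kit, members called, and the 5 called with the largest rise or fall between kits, with hosts; others are named as seen afterwards. Counts were tested with edgeR 4.0.16 (R 4.3.3), using TMM, filterByExpr and Benjamini-Hochberg adjustment at 0.05. The tests set 3 against 3 libraries within a kit or used all 12 between kits. Within a kit, p-values measure the spread between these mice. The main fits over all 12 libraries had no mouse term, so their p-values take the 2 libraries of a mouse as independent. DESeq2 1.42.0 and other settings were alternatives, and the fits were tested on simulated data. Same-numbered libraries of the 2 kits come from the same mouse, whose deviations from the group means correlated with r from 0.444 to 0.770 over 10326 genes. For iron-loaded mouse 2 (r = 0.522) the library of its own number did not have the highest correlation. The sequence of Snord13 is not reported here.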

Additional observations from a re-analysis of the deposited data

Results flagged for a closer look

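Over the 6 libraries of a kit, 21 values were checked for a library whose gap to its neighbour took up more of the whole range than Dixon's critical value for 6 samples allows, and 4 had one. Chance gives about 1 in 20 such values, and the libraries of both diets were pooled for this check. Scarna2 reached 1.81 CPM in the Trad-KAPA library of control mouse 1, with 0.667 of the range below it. Snora73b reached 1.71 CPM in the Trad-KAPA library and 13.8 CPM in the 3’-LEXO library of iron-loaded mouse 1, both made from the same RNA, with 0.654 and 0.874 of the range below them. Snora31, inside Tpt1, reached 1.00 CPM, or 11 reads, in the 3’-LEXO library of iron-loaded mouse 3, with 0.642 of the range below it.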

How the results depend on the processing

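The count of members called between the diets in 3’-LEXO was 2. It was 5 with DESeq2, where 1381 of 13301 genes were called, and 8 without an expression filter, where 2040 of 23491 were. It was 1 with the replicate number as a replicate block, where 436 of 13301 genes were called. Snora30 had an adjusted p of 0.0578 by edgeR there. With each mouse left out the count was 1 to 3, beside 199 of 13588 to 871 of 13670 genes. In Trad-KAPA it was 0, and 2 without a filter, where 2866 of 24470 genes were called. With at least 10 counts it was 2, where 2171 of 16934 were, and 0 with the replicate block, where 1922 of 13151 were. Between the kits it was 9, and 36 without a filter, where 13307 of 27022 genes were called. With at least 10 counts it was 34, where 13046 of 19202 were. With the mouse as the replicate block it was 9, where 11070 of 13311 were. The interaction stayed at 0, also with the mouse as the replicate block, where 5 of 14384 genes were called. Members detected per Trad-KAPA library were 27.3, 9.17 and 2.83 with at least 2, 5 and 10 reads and 35.5 when each library was drawn down to 10000000 counts, and per 3’-LEXO library 33, 19.3 and 11.5, and 41.2 when drawn down. The summed 3’-LEXO level was 249.6 CPM without Snord13. The count of hosts called higher was recomputed as alternatives chosen after seeing the data. Leaving out each mouse gave 4 to 16 for Trad-KAPA and 2 to 9 for 3’-LEXO, beside 3.09% to 10.7% and 0.714% to 3.30% of all genes. The replicate block gave 12 and 4, beside 7.37% and 1.59%. In 3’-LEXO the count was 12 with DESeq2 and 18 without a filter, beside 5.44% and 4.22% of all genes called higher. Same-numbered libraries of different diets had correlations of their deviations from -0.168 to 0.1001, so that the numbers do not pair animals across diets. Log2 fold changes that changed sign with a mouse left out ran from -0.34 to 0.84 for Rmrp and from -0.36 to 0.18 for Rn7sk in Trad-KAPA. In 3’-LEXO they ran from -0.33 to 0.16 for Rpph1, from -0.16 to 0.0059 for Snord104 and from -0.64 to 0.014 for Snord89. The reversed values were -0.34 for Rmrp without iron-loaded mouse 2, 0.18 and 0.11 for Rn7sk without control mouse 2 or iron-loaded mouse 3, 0.018 and 0.16 for Rpph1 without control mouse 2 or iron-loaded mouse 1, and those upper ends for Snord104 without control mouse 1 and Snord89 without iron-loaded mouse 1. For 60 members no library held more than 10 reads. The cause of these changes was not tested.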

Other observations

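Neat1, a nuclear noncoding RNA that scaffolds paraspeckles, was lower on the iron-loaded diet in both kits and is long where the members are short. It was at 363, 391 and 691 CPM in the control and 250, 136 and 147 CPM in the iron-loaded Trad-KAPA libraries, a log2 fold change of -1.53 (SE 0.31, edgeR adjusted p = 0.0160). In 3’-LEXO it was at 566, 694 and 1125 CPM and then 390, 269 and 251 CPM, with -1.47 (SE 0.28, edgeR adjusted p = 0.0185). The groups did not overlap in either kit. Malat1 and Kcnq1ot1, of the same list, did not pass in either kit by edgeR, and DESeq2 called Malat1 higher in 3’-LEXO (adjusted p = 0.0425).

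Snord13 gave 2.67, 2.70 and 2.27 reads for each read of Snord118 in the 3’-LEXO libraries of control mice 1, 2 and 3 and 2.25, 2.17 and 1.79 in those of iron-loaded mice 1, 2 and 3. The iron-loaded values all lay below the control values, although the 2 genes' own levels overlapped between the diets. This ratio was looked at after the values were seen and was not tested.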
